A study of Mus musculus with 34 samples.

Results

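The comparison described here set 4 hippocampus libraries of monocyte-engrafted mice (GFP-BM REPOP) against 4 hippocampus libraries of untreated mice (WT CON), chosen by their labels alone, out of 34 bulk RNA-seq libraries in the study. WT CON mice, labelled Vehicle, were C57BL/6 mice that received no irradiation, transplant or drug. GFP-BM REPOP mice, labelled Irradiation + PLX3397, were C57BL/6 mice given 1000 cGy to the whole body and bone marrow from CAG-EGFP donors, in which a ubiquitous promoter drives green fluorescent protein. After 3.5 months they ate chow with 600 ppm of PLX3397, an inhibitor of the receptor CSF1R, for 14 days, and then recovered for 6 months. A further 4 hippocampus libraries came from mice that were irradiated and transplanted but not given the inhibitor (GFP-BM CON). These entered the fit to estimate the spread between libraries, and their values are given beside the others for some genes and lists only. According to the methods, the recipients were male. Their age at irradiation is given differently in different places of the study and is not stated here. As irradiation, transplant and inhibitor were all given to GFP-BM REPOP mice and none of them to WT CON mice, their effects cannot be told apart in this comparison.

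Microglia are the resident macrophages of the brain. They arise from the yolk sac, maintain themselves locally and need signals through CSF1R to survive, so that an inhibitor of this receptor removes most of them. When the marrow has been replaced by a transplant, blood monocytes derived from the donor can enter the emptied tissue and settle there as macrophages. Such cells take on many features of microglia but keep genes of their own, among them members of the Ms4a family of 4-pass membrane proteins. The hippocampus holds the pyramidal cells of the CA fields and the granule cells of the dentate gyrus, and lies under the neocortex, from which it is separated by hand in a dissection.

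Of 16389 genes in the table, 14167 reached an FPKM (fragments per kilobase of transcript, scaled to sequencing depth) of 1 in at least 3 of the 12 hippocampus libraries and were tested on the log2(FPKM + 0.1) scale. On this scale the fold changes of low genes are understated. A gene was called when its p from limma, adjusted over all genes tested, was under 0.05. Whole reads recovered from the values came to between 16716871 and 24359783 for each hippocampus library. The libraries within a group were not alike. On the first principal component, which held 37.5% of the variance, the WT CON libraries stood at -66.8, -50.4, 8.18 and -14.8 and the GFP-BM REPOP libraries at -20.1, 9.19, -22.2 and 22.8, so that WT CON replicates 1 and 2 stood apart. A GC measure (the median log2 level of GC-rich genes minus that of GC-poor genes) averaged 2.18 ± 0.624 over the WT CON libraries and 1.59 ± 0.552 over those of GFP-BM REPOP (SD, n = 4 each), a difference of -0.59 that was within the spread (two-sided exact permutation test, p = 0.2, where the smallest p possible is 0.029).

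Transcripts linked to the sex chromosomes did not match the stated sex. All 8 libraries of the comparison held *Xist*, the RNA that silences 1 X chromosome in females, at 2.51, 6.67, 12.04 and 7.304 FPKM in WT CON and 9.37, 8.703, 5.49 and 18.8 FPKM in GFP-BM REPOP libraries. The Y-linked gene *Eif2s3y* was at 0.0237, 0, 0 and 0.0279 FPKM in WT CON libraries and at 0 in all 4 GFP-BM REPOP libraries. Only GFP-BM CON replicate 1 showed the reverse, with *Eif2s3y* at 10.8 FPKM and *Xist* at 0.412 FPKM. The 2 groups compared therefore matched each other in these genes, and the GFP-BM CON group was mixed.

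The test called 3 genes, or 0.0212% of those tested, and GFP-BM REPOP mice had the higher level of each. No gene passed in the lower direction (0%). At an unadjusted p under 0.05, 663 genes were higher (4.68%) and 691 lower (4.88%), and 268 genes (1.89%) had all 4 GFP-BM REPOP libraries above all 4 WT CON libraries, with 273 genes (1.93%) below. The median residual SD was 0.278 on the log2 scale. With 0 to 10 genes passing when any 1 library was left out, the count rested on single libraries. It was 0 without any 1 of WT CON replicates 1 to 4, GFP-BM CON replicates 1 and 2, and GFP-BM REPOP replicates 1 and 3.

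Among the 3 genes was the lncRNA gene *9130024F11Rik* (Entrez 329160). It stood at 1.13, 0.782, 0.962 and 0.847 FPKM in WT CON libraries and at 7.32, 4.58, 3.87 and 5.44 FPKM in GFP-BM REPOP libraries. The groups did not overlap, with replicate 1 the highest and replicate 3 the lowest of the GFP-BM REPOP group. *9130024F11Rik* rose by 2.36 on the log2 scale (standard error 0.30, adjusted p = 0.036). Whether the counting used strand is not given in the sources used here, so that reads of this gene and reads of the opposite strand at its position cannot be told apart, and the 3 calls cannot be taken as independent.

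*Plxdc1* (72324, chromosome 11 from 97923237 to 97986669 in GRCm38, with positions from RefSeq), which encodes a membrane protein with a plexin-like domain, also passed. Its values were 7.799, 6.22, 5.53 and 5.94 FPKM in WT CON and 17.9, 14.1, 14.4 and 13.7 FPKM in GFP-BM REPOP libraries, and it rose by 1.23 (standard error 0.16, adjusted p = 0.036). The GFP-BM CON libraries, at 5.299, 5.703, 6.29 and 8.102 FPKM, lay with WT CON. When 1 library at a time was left out, *9130024F11Rik* passed in 4 of 12 fits and *Plxdc1* in 3, while their fold changes kept their direction under all alternatives.

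Both genes are expressed more in the cortex than in the hippocampus. In GFP-BM CON mice, whose libraries took no part in the contrast, the cortex exceeded the hippocampus by 2.35 for *9130024F11Rik* and 1.41 for *Plxdc1* on the log2 scale. The levels in WT CON cortex libraries averaged 8.81 and 18.2 FPKM, above the GFP-BM REPOP hippocampus means of 5.302 and 15.05 FPKM. In the cortex itself the log2 fold changes between GFP-BM REPOP and WT CON were 0.0062 for *9130024F11Rik* and -5.1e-05 for *Plxdc1*. In the thalamus they were 1.01 for *9130024F11Rik* and -0.020 for *Plxdc1*.

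The promoters of 4 myeloid genes are shown because these genes stood apart together, as described further on. Each runs from 250 bases before to 50 bases after a transcription start, 5′ to 3′, from RefSeq (GRCm38.p6). Capitals mark GAGGAA (searched on both strands), a core bound by PU.1, a transcription factor that myeloid cells depend on.
Ms4a7 promoter, chr19:11336097-11336396 (minus strand): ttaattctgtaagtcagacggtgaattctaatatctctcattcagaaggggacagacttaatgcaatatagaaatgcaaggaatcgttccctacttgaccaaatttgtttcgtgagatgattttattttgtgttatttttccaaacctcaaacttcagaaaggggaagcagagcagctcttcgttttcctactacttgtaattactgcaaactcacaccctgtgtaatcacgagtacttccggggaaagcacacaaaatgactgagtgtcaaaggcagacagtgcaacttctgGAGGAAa
Ms4a6c promoter, chr19:11469118-11469417 (plus strand): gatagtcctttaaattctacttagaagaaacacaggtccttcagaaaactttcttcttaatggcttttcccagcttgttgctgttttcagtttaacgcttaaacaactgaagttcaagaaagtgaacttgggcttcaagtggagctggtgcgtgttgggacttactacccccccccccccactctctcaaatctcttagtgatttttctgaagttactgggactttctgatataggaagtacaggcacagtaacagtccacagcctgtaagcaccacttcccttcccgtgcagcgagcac
Apobec1 promoter, chr6:122602395-122602694 (minus strand): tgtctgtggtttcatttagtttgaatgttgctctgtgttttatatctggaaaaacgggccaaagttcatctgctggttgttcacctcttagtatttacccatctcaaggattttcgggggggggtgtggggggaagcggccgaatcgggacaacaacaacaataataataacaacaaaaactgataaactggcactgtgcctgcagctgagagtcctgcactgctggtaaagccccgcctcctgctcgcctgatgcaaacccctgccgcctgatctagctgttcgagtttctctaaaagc
Crybb1 promoter, chr5:112255570-112255869 (plus strand): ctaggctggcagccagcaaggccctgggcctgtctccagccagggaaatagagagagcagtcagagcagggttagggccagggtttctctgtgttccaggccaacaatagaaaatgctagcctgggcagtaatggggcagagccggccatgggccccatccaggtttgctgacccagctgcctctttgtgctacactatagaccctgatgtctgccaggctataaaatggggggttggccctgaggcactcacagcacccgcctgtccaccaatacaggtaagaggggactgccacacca
The letters occurred 1 time in the window of *Ms4a7* and not in the other 3, and 28.3% of 32851 promoters of the same length held them.

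**Figure D1:**
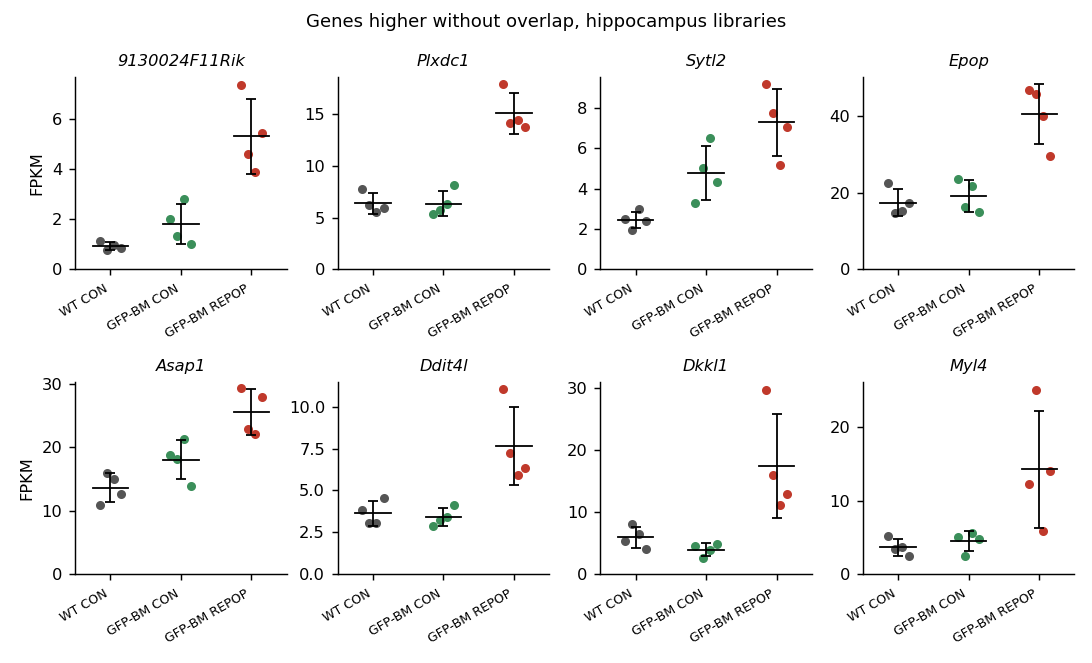
Levels in FPKM (y axis, linear from 0) of 8 genes whose GFP-BM REPOP libraries did not overlap WT CON, with 1 point for each hippocampus library, a line at the group mean and bars of 1 SD (n = 4 each). For *Plxdc1* the GFP-BM REPOP libraries lie between 13.7 and 17.9 FPKM and the WT CON libraries between 5.53 and 7.80.

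Beyond the genes that passed, the genes with the largest moderated t among those without overlap were of 2 kinds. Among the 10 highest, 6 were cortex-enriched in GFP-BM CON mice (at least 1 higher on the log2 scale in the cortex than in the hippocampus, without overlap), among them the pair above and *Sytl2*, *Epop* and *Asap1*. *Sytl2*, an effector of Rab27 in vesicle transport, was at 2.49, 1.96, 2.97 and 2.37 FPKM in WT CON and 9.17, 7.77, 5.18 and 7.05 FPKM in GFP-BM REPOP libraries (log2 fold change 1.52, standard error 0.23, adjusted p = 0.054). *Epop*, a partner of the Polycomb complex PRC2, was at 22.5, 14.6, 15.3 and 17.3 FPKM in WT CON, against 46.8, 45.8, 39.96 and 29.6 FPKM in GFP-BM REPOP libraries (log2 fold change 1.21, standard error 0.19, adjusted p = 0.075). *Asap1*, a GTPase-activating protein for Arf, was at 10.8, 15.9, 15.1 and 12.7 FPKM in WT CON, against 29.3, 22.8, 22.1 and 27.8 FPKM in GFP-BM REPOP libraries (log2 fold change 0.91, standard error 0.16, adjusted p = 0.086). None of these 3 passed the adjusted threshold. The other 4, *Apobec1*, *Ms4a6b*, *Wdfy1* and *Ms4a7*, were not cortex-enriched and are in the signature of engrafted monocytes given further on, *Wdfy1* also among candidate substrain genes.

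Markers of the neocortex as a list lay in the same direction. Of 26 neocortex markers, all tested, GFP-BM REPOP mice had 21 at a higher and 5 at a lower mean level. In this list 1 gene passed (3 with all 9 groups in one fit), 12 were higher and 0 lower at an unadjusted p under 0.05 (4.68% of all genes were higher at this threshold), and 6 were higher without overlap, against 1.89% of all genes. The median log2 fold change of the list was 0.75, against -0.0022 for all genes tested. The markers without overlap included *Dkkl1*, a secreted Dickkopf-like protein, at 5.34, 8.07, 6.39 and 3.99 FPKM in WT CON and 29.6, 15.9, 11.2 and 12.9 FPKM in GFP-BM REPOP libraries (log2 fold change 1.47, standard error 0.31, adjusted p = 0.14). *Myl4*, a myosin light chain, was at 5.18, 3.36, 3.67 and 2.46 FPKM in WT CON, against 12.2, 24.98, 5.84 and 14.03 FPKM in GFP-BM REPOP libraries (log2 fold change 1.80, standard error 0.40, adjusted p = 0.15). *Tbr1*, a transcription factor of deep-layer neurons, was at 20.03, 14.3, 24.1 and 16.3 FPKM in WT CON, against 32.1, 30.7, 24.9 and 37.99 FPKM in GFP-BM REPOP libraries (log2 fold change 0.76, standard error 0.19, adjusted p = 0.23). Markers of upper-layer neurons were less uniform, as *Cux2* was at 26.9, 12.1, 8.77 and 9.21 FPKM in GFP-BM REPOP libraries and at 8.35, 12.6, 6.35 and 7.59 FPKM in WT CON libraries, which overlap.

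The mean level of the neocortex list, relative to the mean of the 12 libraries, ranged from -0.486 to -0.109 over WT CON libraries and from 0.193 to 0.530 over those of GFP-BM REPOP, so the groups did not overlap. Its summed level was 352.1 to 515.6 FPKM in WT CON libraries, below the 553 to 806.8 FPKM in GFP-BM REPOP libraries. Dentate granule cell markers lay the other way, with 3 of 18 higher and 15 lower, 3 lower at an unadjusted p under 0.05 (4.88% of all genes were lower) and a median of -0.51, which was -1.02 without WT CON replicates 1 and 2. The dentate gene *Stra6*, a retinol transporter, was at 8.36, 4.096, 5.32 and 7.26 FPKM in WT CON and 2.03, 2.64, 3.87 and 2.53 FPKM in GFP-BM REPOP libraries (log2 fold change -1.13, standard error 0.27, adjusted p = 0.21). *Prox1*, the defining transcription factor of granule cells, was at 2.75, 0.834, 12.6 and 10.8 FPKM in WT CON, against 1.04, 3.38, 5.78 and 2.798 FPKM in GFP-BM REPOP libraries, so that 1 library in each group held little of it. Of 24 markers of CA pyramidal cells, 11 were higher and 13 lower, with a median of -0.03 (0.16 without those 2 libraries). A tissue score, the neocortex level minus the mean of the CA and dentate levels, was -0.263 ± 0.510 in WT CON, -0.430 ± 0.192 in GFP-BM CON and 0.693 ± 0.515 in GFP-BM REPOP libraries (SD, n = 4 each). The difference of 0.96 between GFP-BM REPOP and WT CON was larger than the SD of either group but did not reach 0.05 (two-sided exact permutation test, p = 0.0571). The lists in this score were chosen with earlier results of these data known, so this test is not independent evidence of a shift.

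**Figure D2:**
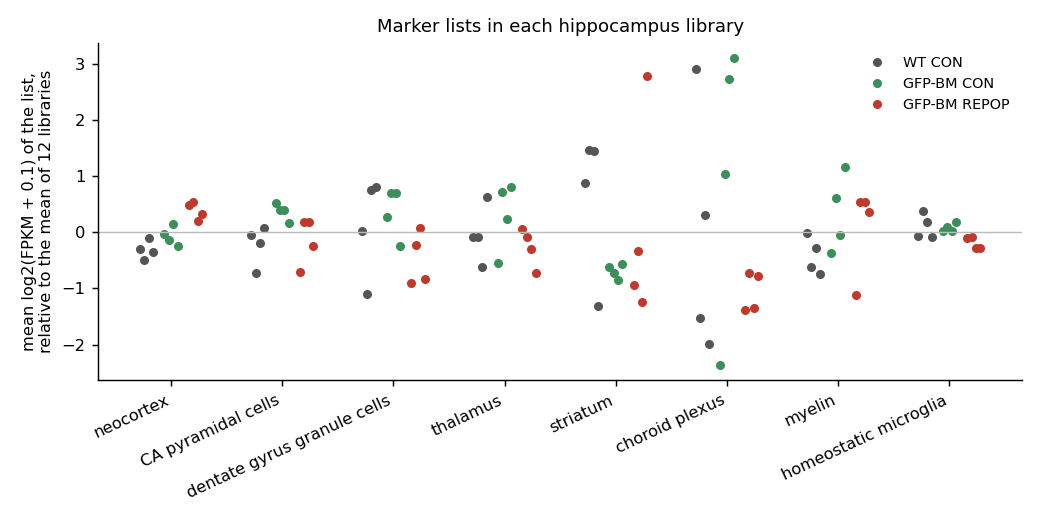
Mean log2(FPKM + 0.1) of the tested members of 8 marker lists (y axis) relative to the mean of the 12 hippocampus libraries, with 1 point for each library. The GFP-BM REPOP points of the neocortex list lie between 0.193 and 0.530, above the WT CON points between -0.486 and -0.109, while choroid plexus and striatum markers spread widely within WT CON.

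Genes that differed between cortex and hippocampus were counted as well. In GFP-BM CON mice, 785 of the genes tested (5.54%) were cortex-enriched and 283 (2%) hippocampus-enriched. Of the cortex-enriched genes, 225 (28.7%) were higher and 7 (0.892%) lower with GFP-BM REPOP at an unadjusted p under 0.05, with a median log2 fold change of 0.74. Of the hippocampus-enriched genes, 0 were higher and 48 (17%) lower, with a median of -0.51. The cortex-enriched genes made up 33.9% of all genes higher at this threshold and 26.9% of the genes higher without overlap. The split did not separate every library, as the median level of the cortex-enriched genes was -1.08, -0.46, 0.08 and -0.73 in WT CON libraries, against 0.22, 0.38, -0.57 and 0.63 with GFP-BM REPOP, and GFP-BM REPOP replicate 3 was below WT CON replicate 3. In GFP-BM CON hippocampus libraries this level was 0.176, 0.41, 0.78 and -0.295. Higher levels of the cortex-enriched genes were therefore not particular to GFP-BM REPOP mice. The neocortex list differed in this, at -0.250 to 0.155 in GFP-BM CON libraries. The GC measure was 2.92, 2.24, 1.39 and 2.16 in WT CON, 1.18, 0.761, 0.517 and 1.685 in GFP-BM CON, and 1.81, 1.20, 2.26 and 1.08 in GFP-BM REPOP libraries. In each group the library highest in this measure was lowest in the cortex-enriched genes, and the lowest was highest. The part of GC composition was not tested. These sets were chosen after the data were seen and were not tested. When the tissue score was added to the fit as a covariate, 0 genes passed (1496 at an unadjusted p under 0.05), with a log2 fold change of 2.11 for *9130024F11Rik* and 1.04 for *Plxdc1*. The part of dissection in these differences was not tested.

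The second kind of gene was myeloid. The study named a signature of engrafted monocytes on these samples, so that its direction here is not independent evidence. The rising list holds the 14 genes named there and *Cybb*, which was added here with earlier results of these data known. All 11 rising signature genes that could be tested, of 15 in the list, had higher levels with engraftment, none of them passed, and all 11 were without overlap and had an unadjusted p under 0.05, against 1.89% and 4.68% of all genes. Their median log2 fold change was 1.66, and 0.99 with a pseudocount of 1. Between GFP-BM CON mice, which were not given the inhibitor, and WT CON mice it was 0.95. With all 9 groups of the study in one fit, which takes the spread from all regions, all 11 passed, among 396 genes in all. For *Ms4a7*, *Ms4a6c*, *Ms4a6b*, *Apobec1*, *Cybb* and *Mrc1*, every WT CON value was under 1 FPKM. These genes met the filter only through the transplanted groups, where they were high. The counts of the list are therefore partly fixed by the filter, and the shares over all genes are not a like comparison. In bulk tissue, fewer cells of a type and less RNA per cell cannot be told apart.

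Among the rising genes were members of the Ms4a family, which lie near each other on chromosome 19. *Ms4a7* (109225, from 11321039 to 11336146) was at 0.626, 0.259, 0.233 and 0.368 FPKM in WT CON libraries and at 2.29, 5.42, 3.37 and 4.58 FPKM in GFP-BM REPOP libraries (log2 fold change 3.09, standard error 0.54, adjusted p = 0.086). *Ms4a6c* (73656, from 11469353 to 11487182) was at 0.123, 0.331, 0.447 and 0.2402 FPKM in WT CON, against 1.37, 1.78, 1.09 and 2.03 FPKM in GFP-BM REPOP libraries (log2 fold change 2.15, standard error 0.41, adjusted p = 0.092). *Ms4a6b* (69774, from 11518559 to 11530403) was at 0.398, 0.2304, 0.337 and 0.322 FPKM in WT CON, against 0.983, 1.704, 1.07 and 1.205 FPKM in GFP-BM REPOP libraries (log2 fold change 1.66, standard error 0.29, adjusted p = 0.086). In each of the 3, the lowest GFP-BM REPOP library was above the highest WT CON library. *Ms4a6b* and *Ms4a6c* are close copies that can share reads, so the split between them is uncertain. *Ms4a6d* (68774), a close relative, was at 0.734, 0.957, 0.5104 and 0.611 FPKM in WT CON, against 1.05, 1.57, 0.814 and 1.38 FPKM in GFP-BM REPOP libraries, which overlap (log2 fold change 0.69, standard error 0.33, adjusted p = 0.52). The GFP-BM CON libraries of *Ms4a7* were split, at 0.527, 2.502, 0.524 and 3.03 FPKM.

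*Apobec1* (11810), a cytidine deaminase that edits mRNA, was at 0.963, 0.858, 0.5600 and 0.631 FPKM in WT CON and 1.95, 2.71, 2.01 and 3.38 FPKM in GFP-BM REPOP libraries (log2 fold change 1.61, standard error 0.26, adjusted p = 0.079), the smallest adjusted p among the rising genes. *Lyz2*, the lysozyme of macrophages, had the highest level, at 21.4, 15.6, 8.61 and 8.72 FPKM in WT CON, against 41.9, 103, 82.4 and 123 FPKM in GFP-BM REPOP libraries (log2 fold change 2.68, standard error 0.57, adjusted p = 0.15). All GFP-BM REPOP libraries lay above the WT CON libraries, and replicate 1 was the lowest of them. *Cybb*, the catalytic subunit of the phagocyte NADPH oxidase, was at 0.212, 0.317, 0.175 and 0.0519 FPKM in WT CON, against 1.03, 1.49, 1.25 and 3.22 FPKM in GFP-BM REPOP libraries (log2 fold change 2.64, standard error 0.51, adjusted p = 0.1). For *Mrc1*, the mannose receptor that also marks macrophages at the borders of the brain, values were 0.347, 0.621, 0.263 and 0.213 FPKM in WT CON, against 0.873, 1.16, 0.839 and 1.91 FPKM in GFP-BM REPOP libraries (log2 fold change 1.496, standard error 0.41, adjusted p = 0.33). The chemokine receptor *Ccr1* was under the filter, at 0.104, 0.0515, 0.0309 and 0 FPKM in WT CON and 0.371, 0.644, 0.345 and 0.518 FPKM in GFP-BM REPOP libraries, as did *Tmem221*, *Tlr8* and *Msr1*.

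Falling signature genes were 8 of 9 tested, and all 8 were lower at an unadjusted p under 0.05, 5 of them without overlap (1.93% of all genes). Their median log2 fold change was -1.56 (-1.04 with a pseudocount of 1), and none passed, while 5 of the 8 passed with all 9 groups in one fit. *Lag3*, an inhibitory receptor, was closest, at 5.47, 3.61, 3.23 and 2.86 FPKM in WT CON and 1.13, 1.19, 1.32 and 0.802 FPKM in GFP-BM REPOP libraries (log2 fold change -1.66, standard error 0.24, adjusted p = 0.054). *Slc2a5*, a fructose transporter that microglia express in the brain, was at 2.45, 2.39, 2.15 and 2.45 FPKM in WT CON, against 0.678, 1.11, 0.5405 and 0.473 FPKM in GFP-BM REPOP libraries (log2 fold change -1.68, standard error 0.25, adjusted p = 0.054), with WT CON libraries close together. *Crybb1*, a crystallin that microglia also express, was at 6.34, 7.85, 5.31 and 5.59 FPKM in WT CON, against 1.96, 1.77, 1.76 and 0.704 FPKM in GFP-BM REPOP libraries (log2 fold change -2.02, standard error 0.31, adjusted p = 0.063). *Itgam*, which encodes the CD11b chain of complement receptor 3, was nearly constant in both control groups, at 5.05, 5.04, 5.18 and 5.28 FPKM in WT CON and 5.05, 4.98, 5.11 and 5.26 FPKM in GFP-BM CON libraries, against 2.86, 3.48, 3.32 and 2.93 FPKM in GFP-BM REPOP libraries (log2 fold change -0.69, standard error 0.12, adjusted p = 0.079). *Siglech*, a lectin receptor of microglia, overlapped, at 2.64, 3.32, 4.84 and 2.32 FPKM in WT CON, against 2.49, 2.95, 1.63 and 1.42 FPKM in GFP-BM REPOP libraries (log2 fold change -0.61, standard error 0.27, adjusted p = 0.52).

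**Figure D3:**
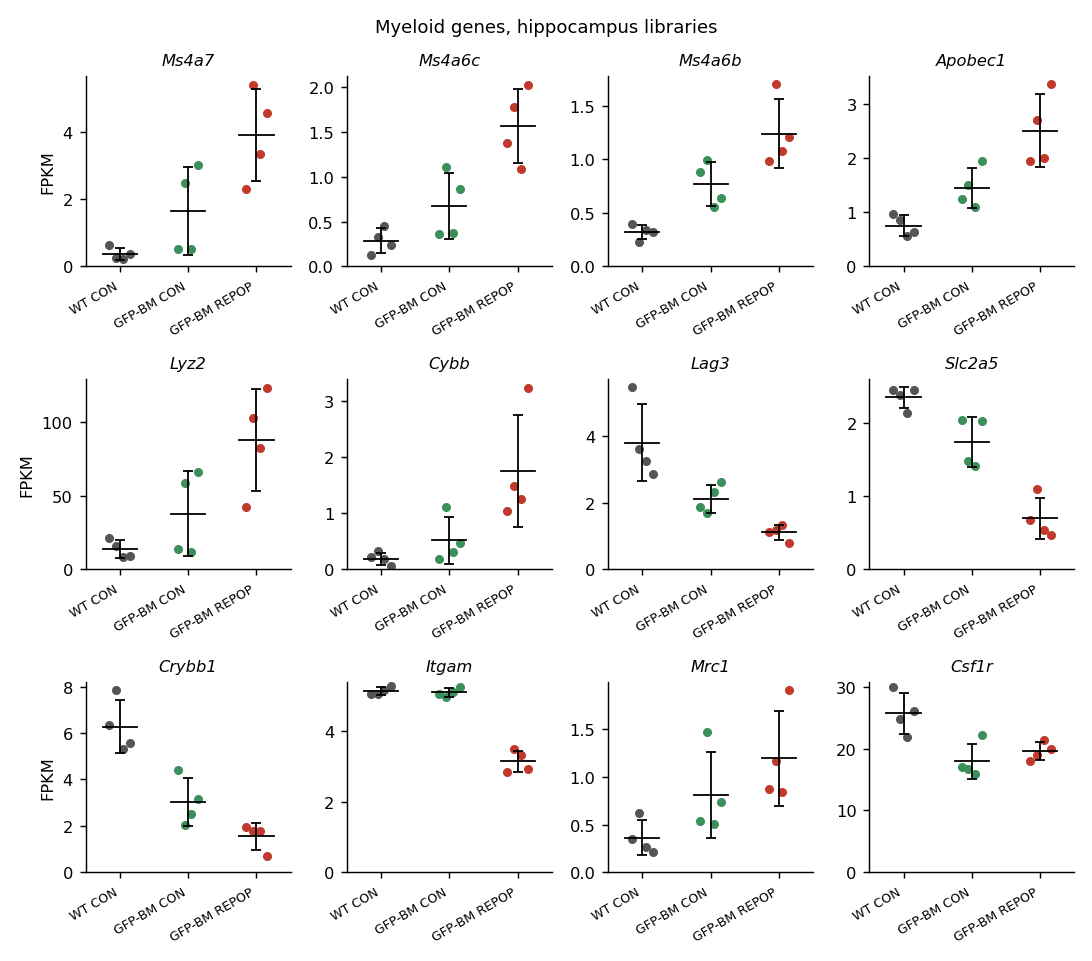
Levels in FPKM (y axis, linear from 0) of 12 myeloid genes, with 1 point for each hippocampus library, a line at the group mean and bars of 1 SD (n = 4 each). The GFP-BM REPOP points of *Ms4a7* lie between 2.29 and 5.42 FPKM against 0.233 to 0.626 in WT CON, and those of *Itgam* between 2.86 and 3.48 FPKM against 5.04 to 5.28.

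Of 19 homeostatic microglia genes tested, 5 were higher and 14 lower, 7 were lower and 0 higher at an unadjusted p under 0.05 (4.88% of all genes were lower), none passed (1 was called lower with all 9 groups in one fit), and the median was -0.38. *Csf1r*, the target of the inhibitor, was at 30.1, 24.8, 21.9 and 26.05 FPKM in WT CON, against 17.99, 18.97, 21.5 and 20.01 FPKM in GFP-BM REPOP libraries, without overlap (log2 fold change -0.38, standard error 0.13, adjusted p = 0.43). *Tmem119*, a membrane protein of microglia, was at 13.3, 13.2, 9.84 and 13.2 FPKM in WT CON, against 7.42, 11.1, 8.63 and 5.94 FPKM in GFP-BM REPOP libraries, with overlap (log2 fold change -0.60, standard error 0.18, adjusted p = 0.38). *P2ry12*, the purinergic receptor by which microglia sense ADP, was at 1.09, 2.099, 4.43 and 2.07 FPKM in WT CON, against 2.103, 5.56, 1.17 and 2.81 FPKM in GFP-BM REPOP libraries, also with overlap (log2 fold change 0.21, standard error 0.48, adjusted p = 0.89). *Aif1*, which encodes the myeloid protein IBA1, was at 6.81, 6.61, 4.999 and 5.18 FPKM in WT CON, against 5.94, 11.8, 6.22 and 8.05 FPKM in GFP-BM REPOP libraries (log2 fold change 0.39, standard error 0.21, adjusted p = 0.55). Over 18 genes of the myeloid lineage and the CSF1R pathway, 9 were higher and 9 lower, with a median of -0.01 (0.23 without both WT CON libraries that stood apart).

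Genes of disease-associated microglia and phagocytosis were 14 higher and 6 lower of 20 tested, with a median of 0.10 (0.29 without both WT CON libraries that stood apart) and none passing (1 was called higher with all 9 groups in one fit). *Apoe*, the apolipoprotein of astrocytes and activated microglia, was at 1954, 1734, 1158 and 1492 FPKM in WT CON and 2036, 2646, 2372 and 1979 FPKM in GFP-BM REPOP libraries, without overlap (log2 fold change 0.53, standard error 0.21, adjusted p = 0.49). *Clec7a*, a receptor for fungal glucans, was at 0.221, 0.363, 0.461 and 0.282 FPKM in WT CON, against 0.631, 1.36, 0.714 and 2.28 FPKM in GFP-BM REPOP libraries, likewise without overlap (log2 fold change 1.51, standard error 0.52, adjusted p = 0.46). For 16 genes of antigen presentation by MHC, 5 were higher and 11 lower (median -0.12), and 0 reached an unadjusted p under 0.05. This median was 0.39 without both WT CON libraries that stood apart. The class II chain *Cd74* ranged widely within WT CON, from 1.92 to 14.5 FPKM, and was at 5.31, 6.602, 3.05 and 4.34 FPKM in GFP-BM REPOP libraries. Interferon-stimulated genes were 5 higher and 12 lower of 17 (median -0.20, and -0.03 without both libraries), with 1 lower at an unadjusted p under 0.05. Among 15 complement genes, *Itgam* was lower and *C3ar1*, the receptor for C3a, was higher without overlap, at 0.634, 0.543, 0.529 and 0.298 FPKM in WT CON, against 0.823, 1.003, 1.01 and 1.97 FPKM in GFP-BM REPOP libraries (log2 fold change 1.07, standard error 0.37, adjusted p = 0.45), while *C1qa*, a chain of the first component, differed by 0.20 (standard error 0.19, adjusted p = 0.72). Without overlap, 1.89% of all genes were higher and 1.93% lower.

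Border-associated macrophage genes were 4 higher and 3 lower of 7 tested, with a median of 0.48, and *Cd163*, a scavenger receptor of these cells, was under the filter. Fibroblast markers of the meninges were 2 higher and 17 lower of 19, with a median of -0.72 (0.46 without both WT CON libraries that stood apart), and choroid plexus markers 1 higher and 17 lower of 18, with a median of -1.08 (-0.19 without them). None of these 37 genes reached an unadjusted p under 0.05. *Ttr*, the transthyretin of the choroid plexus, was at 6324, 17.1, 740 and 70.5 FPKM in WT CON and 73.04, 277, 161 and 250 FPKM in GFP-BM REPOP libraries, so that 2 WT CON libraries held more *Ttr* RNA than any GFP-BM REPOP library and the other 2 less. Striatum markers were 2 higher and 17 lower of 19, with a median of -0.53, which was 0.15 without both WT CON libraries. *Drd2*, a dopamine receptor of striatal neurons, was at 19.2, 27.3, 24.3 and 3.69 FPKM in WT CON, against 3.32, 4.75, 2.25 and 69.8 FPKM in GFP-BM REPOP libraries, with GFP-BM REPOP replicate 4 the highest. Their part in the differences described here was not tested.

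**Figure D4:**
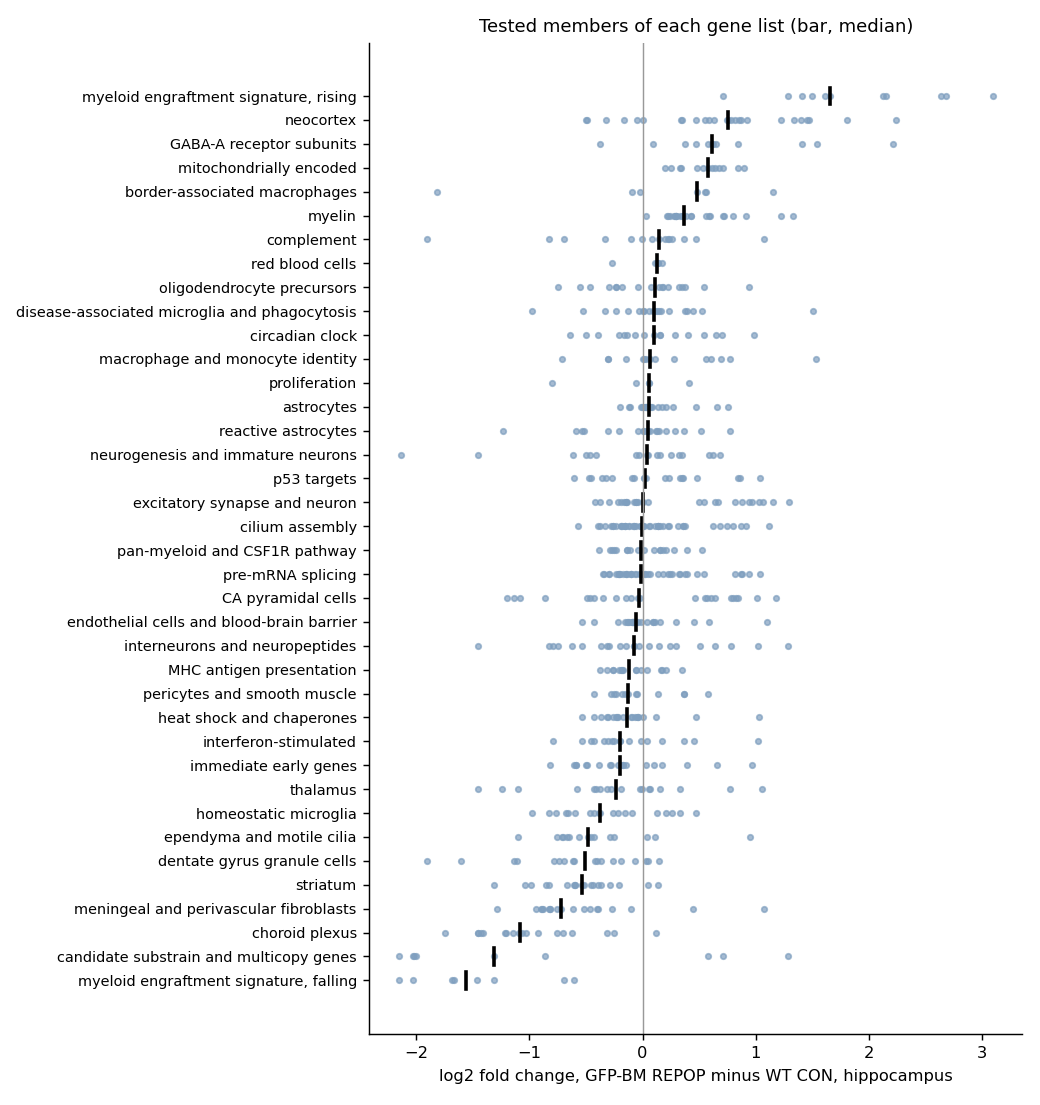
Log2 fold changes between GFP-BM REPOP and WT CON hippocampus libraries (x axis) of the tested members of 38 gene lists, with 1 point for each gene and a black bar at the median. The rising signature has the highest median, 1.66, followed by the neocortex list at 0.75, and the falling signature the lowest, -1.56.

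A few genes that are repeated in the genome, or that differ between substrains of C57BL/6 mice, split the GFP-BM REPOP group by animal. *Ccl21b*, 1 of several near-identical genes for the chemokine CCL21, was at 12.4, 7.72, 13.3 and 17.5 FPKM in WT CON libraries and at 2.73, 17.2, 1.17 and 0.853 FPKM in GFP-BM REPOP libraries (log2 fold change -2.15, standard error 0.70, adjusted p = 0.41), so replicate 2 lay with WT CON and the other 3 below. The same mouse was high in the other regions, at 24.1 FPKM in the cortex and 6.22 FPKM in the thalamus, where the other 3 GFP-BM REPOP mice were at 0.502 to 0.719 and 0.214 to 0.603 FPKM. *Tmem254c* (Entrez 100039192, chromosome 14 from 26063751 to 26067425), 1 of several copies of a membrane protein gene, was also highest in that mouse within the group, though below every WT CON library, at 38.01, 22.7, 29.6 and 23.3 FPKM in WT CON and 10.2, 18.5, 9.66 and 9.85 FPKM in GFP-BM REPOP hippocampus libraries (log2 fold change -1.26, standard error 0.22, adjusted p = 0.086). In GFP-BM CON hippocampus libraries *Tmem254c* was at 18.7, 17.1, 19.02 and 14.7 FPKM, also below every WT CON library. There *Ccl21b* was at 11.7, 9.79, 10.99 and 7.76 FPKM, within the WT CON range. Reads of such copies may be split among them by the counting, and the values of single copies are uncertain.

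*Nnt*, the mitochondrial transhydrogenase that is partly deleted in C57BL/6J mice, was at 7.12, 5.71, 4.95 and 5.73 FPKM in WT CON and 10.04, 8.25, 10.2 and 10.1 FPKM in GFP-BM REPOP libraries (log2 fold change 0.71, standard error 0.14, adjusted p = 0.092). *Wdfy1*, an endosomal protein, was at 4.33, 8.17, 8.26 and 6.38 FPKM in WT CON, against 19.02, 12.3, 16.2 and 17.99 FPKM in GFP-BM REPOP libraries (log2 fold change 1.28, standard error 0.22, adjusted p = 0.086). *Entpd4*, a nucleotidase of the Golgi, was at 55.3, 43.4, 45.03 and 54.03 FPKM in WT CON, against 27.02, 29.7, 26.9 and 24.8 FPKM in GFP-BM REPOP libraries (log2 fold change -0.86, standard error 0.17, adjusted p = 0.11). In these 3 genes the groups did not overlap. The GFP-BM CON libraries were above WT CON too for *Wdfy1*, at 10.7, 12.4, 11.3 and 17.3 FPKM, and for *Nnt*, at 7.96, 8.23, 9.002 and 10.1 FPKM. For *Entpd4* they were at 46.99, 31.4, 28.5 and 24.7 FPKM, so that replicate 1 lay with WT CON and the others below it. Of the 9 tested genes of this list, 3 were higher and 6 lower, all at an unadjusted p under 0.05 (4.68% of all genes were higher and 4.88% lower). None passed, while 3 higher and 2 lower genes did with all 9 groups in one fit. Among them *Nnt*, *Wdfy1*, *Ccl21a* and *Ccl21b* are also in the signature that the study named on these samples. Copies of a repeated gene can also share reads. These counts are therefore not independent evidence.

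Neurons and glia showed no gene passing outside the neocortex list, by limma, in any of the lists for synapses, interneurons, astrocytes, myelin, oligodendrocyte precursors and endothelial cells. *Rbfox3*, which encodes the neuronal protein NeuN, was at 65.7, 69.3, 84.6 and 96.1 FPKM in WT CON and 71.1, 67.6, 81.9 and 76.7 FPKM in GFP-BM REPOP libraries (log2 fold change -0.07, standard error 0.14, adjusted p = 0.87). *Dlg4*, which encodes the postsynaptic protein PSD-95, was at 310, 283, 272 and 343 FPKM in WT CON, against 251, 295, 326 and 285 FPKM in GFP-BM REPOP libraries (log2 fold change -0.06, standard error 0.13, adjusted p = 0.88). *Map2*, a dendritic protein, was far more variable, at 8.82, 19.4, 33.4 and 17.2 FPKM in WT CON, against 28.8, 58.00, 16.8 and 47.9 FPKM in GFP-BM REPOP libraries (log2 fold change 0.94, standard error 0.49, adjusted p = 0.54). *Gfap* of astrocytes was at 122, 73.6, 62.9 and 122 FPKM in WT CON, against 51.3, 139, 141 and 70.7 FPKM in GFP-BM REPOP libraries (log2 fold change 0.01, standard error 0.35, adjusted p = 0.99), with *S100b* at 79.9, 64.6, 48.2 and 62.8 FPKM in WT CON, against 70.02, 90.8, 76.6 and 68.4 FPKM in GFP-BM REPOP libraries (log2 fold change 0.27, standard error 0.19, adjusted p = 0.61). At an unadjusted p under 0.05, 1 of 27 synapse genes, 4 of 23 interneuron genes, 0 of 21 astrocyte genes, 3 of 24 myelin genes, 2 of 18 precursor genes and 1 of 25 endothelial genes stood out in either direction, where 4.68% of all genes were higher and 4.88% lower. With all 9 groups in one fit, 1 myelin gene and 1 interneuron gene passed as higher and 1 interneuron gene as lower. All 24 myelin genes were higher, with a median of 0.37, but only 3 at an unadjusted p under 0.05. The mean level of the list, relative to the 12 libraries, was -1.12 in GFP-BM REPOP replicate 1. This was below every WT CON library (-0.742 to -0.005). For the myelin genes the GFP-BM CON group exceeded WT CON by a larger median, 0.59 on the log2 scale.

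Among 12 subunits of the GABA-A receptor, 11 were higher, 4 at an unadjusted p under 0.05 (4.68% of all genes were higher), and the median was 0.62, which was 0.23 without both WT CON libraries that stood apart. With all WT CON libraries kept, the GFP-BM CON group exceeded WT CON by a larger median for these subunits, 0.98 on the log2 scale. *Gabra2* was at 0.474, 0.975, 1.298 and 1.98 FPKM in WT CON and 4.85, 8.62, 3.28 and 5.53 FPKM in GFP-BM REPOP libraries, without overlap (log2 fold change 2.21, standard error 0.49, adjusted p = 0.15). The immature neuron gene *Dcx* was at 0.128, 2.27, 1.66 and 0.2101 FPKM in WT CON, against 1.901, 0.767, 0.244 and 1.198 FPKM in GFP-BM REPOP libraries, which overlap (log2 fold change 0.35, standard error 0.82, adjusted p = 0.89). *Mki67*, the proliferation marker, was under the filter at 0.0167, 0.0289, 0.178 and 0.132 FPKM in WT CON, against 0.01097, 0.0494, 0.0646 and 0.0938 FPKM in GFP-BM REPOP libraries. In the neurogenesis list 10 were higher and 8 lower of 18 (median 0.04, and 0.32 without both libraries). *Ddit4l*, a regulator of mTOR, is also cortex-enriched and was the 1 gene without overlap among 20 p53 targets, at 3.81, 3.07, 3.05 and 4.57 FPKM in WT CON, against 11.1, 7.23, 5.94 and 6.36 FPKM in GFP-BM REPOP libraries (log2 fold change 1.03, standard error 0.21, adjusted p = 0.13), while the p53 target *Cdkn1a* was at 6.23, 31.4, 10.4 and 5.67 FPKM in WT CON, against 19.9, 6.74, 3.97 and 7.91 FPKM in GFP-BM REPOP libraries. Of 20 immediate early genes, *Ier5* was higher without overlap, at 20.8, 18.3, 18.9 and 16.5 FPKM in WT CON, against 33.05, 30.5, 26.8 and 27.1 FPKM in GFP-BM REPOP libraries (log2 fold change 0.65, standard error 0.12, adjusted p = 0.086), while 14 of the 20 were lower. *Nos1*, the neuronal nitric oxide synthase, and *Cort*, the neuropeptide cortistatin, were lower without overlap among 23 interneuron genes, at 13.04, 23.2, 15.1 and 19.5 FPKM in WT CON, against 9.82, 7.24, 12.8 and 12.1 FPKM in GFP-BM REPOP libraries for *Nos1* (log2 fold change -0.75, standard error 0.21, adjusted p = 0.34). Of all genes tested, 1.89% were higher and 1.93% lower without overlap, so such single genes are not a result about their lists.

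All 13 mitochondrially encoded genes were higher, with a median of 0.58, and 2 had an unadjusted p under 0.05. This median was 0.05 after correction for GC content and length and 0.15 with quantile normalization. Without either step, the GFP-BM CON group exceeded WT CON by a larger median for these genes, 0.88 on the log2 scale. The remaining lists had no gene passing in the fit of the hippocampus libraries. In the values that follow, the second is the median without both WT CON libraries that stood apart. Medians were -0.23 and -0.20 for markers of the thalamus, -0.48 and 0.22 for ependyma and motile cilia, and 0.13 and 0.10 for red blood cell genes. They were 0.06 and 0.38 for macrophage and monocyte identity, -0.13 and 0.28 for pericytes, and 0.05 and 0.34 for reactive astrocytes. For pre-mRNA splicing they were -0.01 and -0.11, for the circadian clock 0.10 and 0.14, for heat shock -0.13 and -0.08, and for proliferation 0.06 and 0.13. For cilium assembly they were -0.0055 and -0.0030.

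The effect in the hippocampus was also compared with that in the other regions, in a fit of all 34 libraries. It differed from the effect in the cortex for 5 of 15053 genes (0.0332%) and from the effect in the thalamus, dissected with the striatum, for 4 (0.0266%). *Plxdc1* was in both sets, with a difference of 1.23 from the cortex (standard error 0.19, adjusted p = 0.011) and of 1.25 from the thalamus (standard error 0.19, adjusted p = 0.0042). *Epop* differed from the thalamus (1.45, standard error 0.27, adjusted p = 0.04). For *9130024F11Rik* the difference from the cortex was 2.33 (standard error 0.55) and missed the threshold (adjusted p = 0.19). Its difference from the thalamus, where it also rose, was 1.355 (standard error 0.53, adjusted p = 0.44). No signature gene was among those that differed. Apart from *Cybb*, the study chose these genes because they differed in all 3 regions of these mice, so this was largely fixed in advance. For *Ms4a7*, the log2 fold changes were 3.09 in the hippocampus, 3.96 in the cortex and 3.98 in the thalamus, and the hippocampus differed from the cortex by -0.88 (standard error 0.65, adjusted p = 0.97) and from the thalamus by -0.89 (standard error 0.63, adjusted p = 0.60), which does not show that the effects were alike. The standard error of *Ms4a7* was 0.54 in the hippocampus fit, 0.30 in the cortex fit and 0.36 in the thalamus fit. Its adjusted p was 0.00018 in the cortex and 0.0015 in the thalamus.

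**Figure D5:**
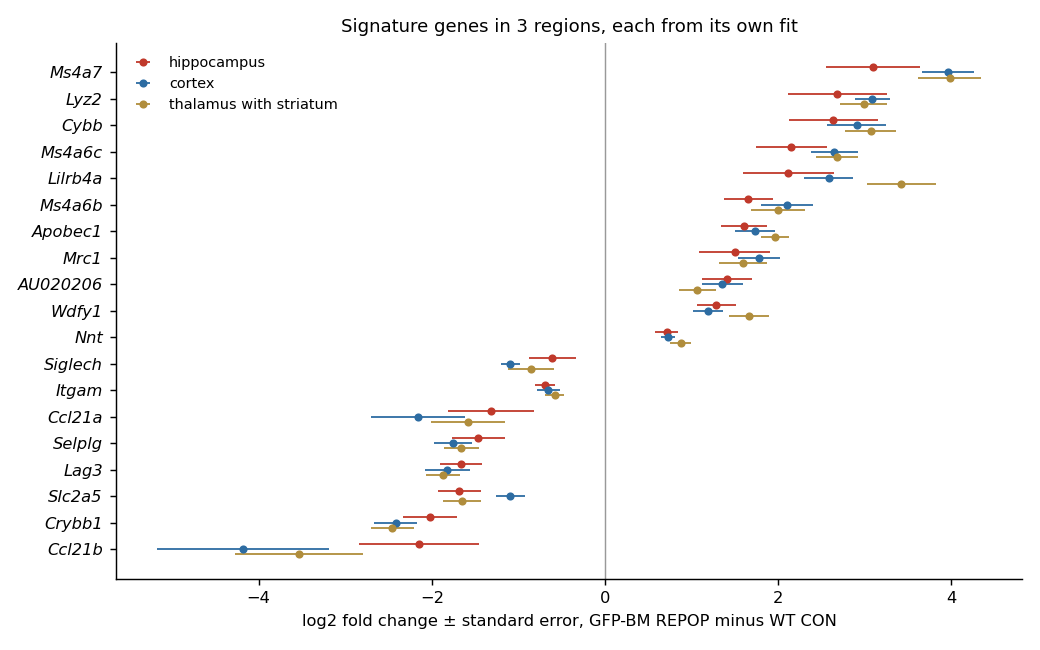
Log2 fold changes between GFP-BM REPOP and WT CON (x axis) of 19 signature genes in 3 regions, each from its own fit, with bars of 1 standard error. The hippocampus values lie on the same side of 0 as those of the other regions for all 19 genes, and that of *Ms4a7* is 3.09 against 3.96 in the cortex. Apart from *Cybb*, the study chose these genes for differing in all 3 regions, so the shared side is not independent evidence.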

How the data were processed

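RNA of 34 libraries, each from 1 brain region of 1 mouse, was analysed, and the 12 hippocampus libraries were used here. According to the methods and labels, the authors extracted RNA with a RIN of at least 7, sequenced paired 150-base reads, aligned them with STAR to mm10, counted them with featureCounts and normalized with edgeR and limma. They deposited FPKM values, which the methods call RPKM. These values are normalized to depth and length and are not counts. Whole reads were recovered from the steps of the values, with 100% of values whole within 0.01, for all but 1 gene, and at this depth 0.441% of hippocampus values were 0.

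GFP-BM REPOP and WT CON were compared by limma-trend (limma 3.58.1, R 4.3.3) on log2(FPKM + 0.1), two-sided with Benjamini-Hochberg adjustment, in a fit with 3 groups of 4 libraries. The fit was run on simulated data with noise independent between genes and libraries and with changes larger than those of most genes named here. That run therefore does not give the error rate or the sensitivity of this comparison. Differences between regions were contrasts of contrasts over 34 libraries, the animal being a random block (estimated correlation -0.038). Within a region each library comes from a different mouse by its label. Gene positions and promoters were taken from RefSeq, which matched 15947 gene IDs, and GC content was known for 93.4% of the genes tested.

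The members and gene lists were chosen with earlier results of these data known. Genes were named from those that passed, the 10 rises and 10 falls of largest moderated t without overlap, the genes and stained proteins the study names, and from each list its first 2 symbols and up to 4 members of smallest p without overlap. Not all of these are described, and 1 gene that passed and some list members are not reported here. *Eif2s3y* and genes that differed between regions were named after their values were seen. Alternatives were another pseudocount, filter, scaling, set of groups, variance model or weighting, voom on the recovered reads, a correction for GC content and length with splines of 5 degrees of freedom, the replicate number as a block, and leaving out each library. A tissue covariate and the removal of both outlying WT CON libraries were chosen after seeing the data.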

Additional observations from a re-analysis of the deposited data

Results flagged for a closer look

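Among 146 groups of 4 libraries checked, 9 held a library far from the other 3, where chance gives about 1 in 20. *Plxdc1* was at 17.9 FPKM in GFP-BM REPOP replicate 1, against 13.7 to 14.4 in the others, and *Crybb1* at 0.704 FPKM in replicate 4, against 1.76 to 1.96. GFP-BM REPOP replicate 2 stood apart for 4 genes. It was at 18.5 FPKM for *Tmem254c* (others 9.66 to 10.2), 17.04 for *Tmem254b* (others 8.73 to 9.12), 8.25 for *Nnt* (others 10.04 to 10.2) and 17.2 for *Ccl21b* (others 0.853 to 2.73). The mean level of lists relative to the 12 libraries was low for p53 targets in GFP-BM REPOP replicate 3 (-0.124), for astrocytes in replicate 4 (-0.235) and for myelin in replicate 1 (-1.12).

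The effect of the comparison differed between regions for 8 genes. Relative to the cortex, it was higher in the hippocampus for *Osbpl1a* by 0.98 (adjusted p = 0.037), *Ldb2* by 1.505 (adjusted p = 0.037) and *Plxdc1* by 1.23 (adjusted p = 0.011), and it differed by -1.25 for *Shisal1* and -1.46 for *Tunar* (adjusted p = 0.037 each). Relative to the thalamus, it was higher for *Olfm2* by 1.17 (adjusted p = 0.0495), *Epop* by 1.45 (adjusted p = 0.04), *Il17d* by 0.86 (adjusted p = 0.033) and *Plxdc1* by 1.25 (adjusted p = 0.0042).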

How the results depend on the processing

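The count of 3 genes passing was 6 with a pseudocount of 1, 9 with eBayes without trend, 9 after correction for GC content and length, 5 with voom on the recovered reads and 1 with array quality weights. It was 0 with quantile normalization (1354 genes at an unadjusted p under 0.05), 0 with only the 2 groups compared (1023), 0 without both WT CON libraries that stood apart (1246) and 0 with the tissue score as a covariate (1496). With all 9 groups in one fit, which takes the spread from all regions, 396 genes passed, 195 of them higher, and 2730 had an unadjusted p under 0.05. Leaving out 1 library gave 0 to 10 genes passing and 831 to 2084 at an unadjusted p under 0.05, with 10 passing without GFP-BM REPOP replicate 2 and 7 without replicate 4, 2084 without WT CON replicate 3 and 2057 without GFP-BM REPOP replicate 3. The GC measure kept its sign, with -0.848 to -0.340 without 1 library. The directions of 31 named genes were kept under all 28 alternatives that gave a value. The cause of these changes was not tested.

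With the replicate number as a block, 0 genes passed (944 at an unadjusted p under 0.05). The numbers name different mice, and the deviations of same-numbered libraries correlated between -0.447 and -0.058, so that they share only a number.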
